A study of Homo sapiens with 5 samples.

Results

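The comparison set U2OS cells that carry an inducible E2F1 construct but were sorted as YFP-negative against parental U2OS cells, which do not carry it. U2OS is a human osteosarcoma cell line. The 2 libraries were those labelled YFP-negative and parental, out of 5 in the series, with 1 library on each side. YFP-negative cells came from U2OS pTRIPZ-YFP-ER-E2F1, in which a yellow fluorescent protein (YFP) and the hormone-binding part of the oestrogen receptor (ER) are fused to the transcription factor E2F1. The labels give the same treatment for both libraries: medium with 8% serum, doxycycline at 500 ng/ml for 48 h, and then 90 nM 4-hydroxytamoxifen (OHT) for 20 h more. The remaining libraries were 3 fractions of the same construct-bearing line, called YFP-low, YFP-medium and YFP-high. The labels do not say whether that line was 1 clone or a pool, or whether parental cells passed through the sorter. Having 1 library a side, the comparison has no replicate spread, and no test or p-value is given. Effects of the construct, of its integration and of separate culture cannot be told apart.

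E2F1 is a transcription factor that binds promoters of genes for S-phase entry and DNA replication, and at high activity it can also drive genes of apoptosis. It is held in check by the retinoblastoma protein, which cyclin E and its kinase release. In a doxycycline-inducible vector the drug switches on transcription of the fusion, and OHT lets a protein fused to the ER part enter the nucleus. YFP-negative cells are therefore construct-bearing cells without detected fluorescence, and parental cells are the line from which they were made.

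Of 27992 gene names in the table of read counts, 15099 had at least 1 count per 1000000 gene reads (CPM) in at least 1 of the 5 libraries and were analysed. Gene reads numbered 76.5 M in YFP-negative cells and 74.1 M in parental cells. Levels are CPM scaled by trimmed mean of M values (TMM), with factors of 1.09 for YFP-negative and 1.06 for parental cells. A fold is the ratio of the levels of YFP-negative over parental cells and stands with its 95% exact counting interval. That interval covers counting error only, and PCR copies of 1 molecule are counted as separate reads. Genes are called higher or lower where the log2 ratio, computed with 0.5 CPM added to each level, passed 2-fold and the interval excluded no change.

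E2F1 had 8841 reads in YFP-negative cells and 6791 in parental cells. This is 106 CPM in YFP-negative cells and 86.1 CPM in parental cells, a 1.23-fold higher level (1.19 to 1.27) that did not reach the 2-fold rule. The level was 163, 361 and 996 CPM in YFP-low, YFP-medium and YFP-high cells. YFP-negative cells thus lay nearer to parental cells in E2F1 than to any YFP-positive fraction. Reads of the fusion and of the endogenous gene are counted together. ESR1, the gene of oestrogen receptor alpha, had 3 reads in YFP-negative cells and 15 in parental cells. It had only 25 reads in YFP-high cells, where E2F1 had 63620, so ESR1 reads cannot serve as a measure of the fusion.

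The 2 populations nevertheless differed widely. In YFP-negative cells 327 genes were higher (2.17%) and 442 lower (2.93%) than in parental cells. The median size of the log2 ratio was 1.32 among the higher genes and 1.31 among the lower genes, and over all 15099 genes the median log2 ratio was -0.01. Past 4-fold on the same scale were 39 higher and 48 lower genes. Medians over parental cells were similar in all construct-bearing fractions. The higher genes had a median log2 ratio over parental of 1.32 in YFP-negative cells, and of 1.60, 1.52 and 1.27 in YFP-low, YFP-medium and YFP-high cells. The lower genes had medians of -1.31, -1.46, -1.59 and -1.43 in the same order. All 4 ratios share the parental library, so they are not separate observations of the difference. Between YFP-low and YFP-negative cells, where the YFP-negative library is the one that chose the genes, the median log2 ratio was 0.10 for the higher genes and -0.10 for the lower genes.

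**Figure D1:**
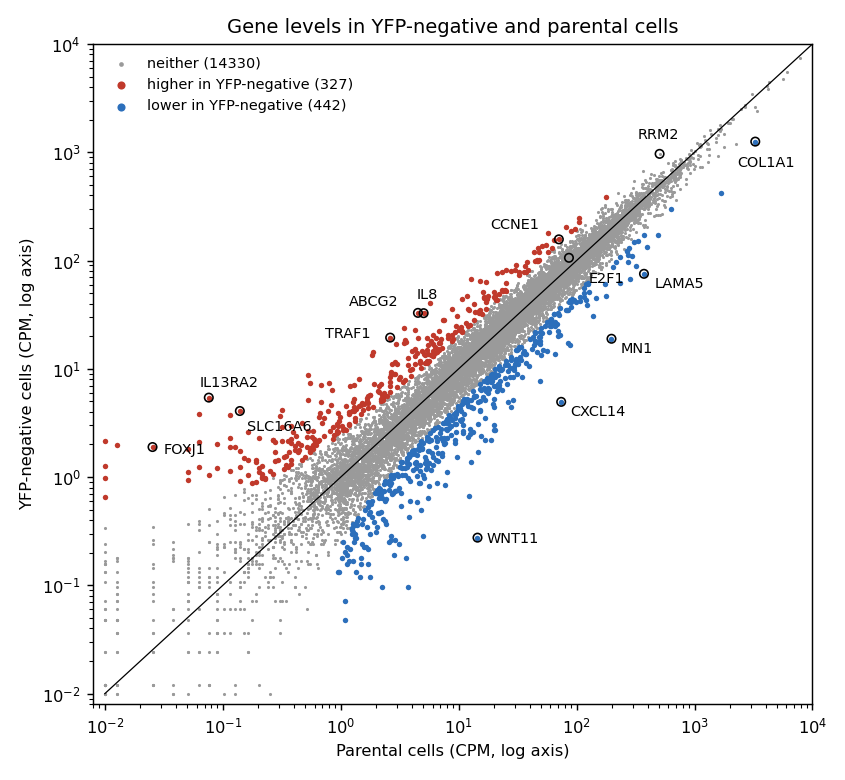
Levels of the 15099 analysed genes in YFP-negative cells (vertical axis, CPM, log axis) and parental cells (horizontal axis, CPM, log axis), 1 point a gene, with levels under 0.01 CPM drawn at 0.01. Red points are the 327 genes called higher and blue points the 442 called lower; E2F1 lies close to the line of equal levels, while WNT11, CXCL14 and MN1 lie far below it and IL13RA2 far above.

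Markers of mesenchymal identity were read in both libraries, at lower levels in YFP-negative cells for most. Of 12 markers of osteosarcoma and mesenchymal cells, 9 were analysed, and SP7 and TWIST1 had no reads in either library. VIM, the filament protein of mesenchymal cells, had 1353 CPM in YFP-negative and 1520 CPM in parental cells. RUNX2, the main transcription factor of the osteoblast lineage, had 32.5 CPM in YFP-negative and 50.7 CPM in parental cells and was not called. Of these 9 markers COL1A1 and BMP4 were lower in YFP-negative cells, 2 of the 9 lay above 0 around a median log2 ratio of -0.49, and the markers summed to 3812 CPM in YFP-negative and 6562 CPM in parental cells. Of 9 analysed fibroblast and stromal markers 4 were lower (PDGFRA, PDGFRB, COL1A1 and COL3A1), 1 lay above 0 and the median log2 ratio was -0.49. Their summed level, with COL1A1 in both lists, was 1552 CPM in YFP-negative and 3731 CPM in parental cells. COL1A1 alone made up 1254 CPM in YFP-negative and 3271 CPM in parental cells of each list's sum. COL1A2 had 26 reads and DCN 1 read in each library. Of 14 leukocyte markers, 11 were below 1 CPM in both libraries, and CD3E, LYZ and TYROBP had no reads in either. LCP1, an actin-bundling protein of leukocytes that tumour lines also make, was higher, with 17.9 CPM in YFP-negative and 5.83 CPM in parental cells. It was the 1 marker above 0 of the 3 analysed, whose median log2 ratio was -0.25. CORO1A and CD8A had 4.09 and 0.551 CPM in YFP-negative cells and 4.96 and 1.29 CPM in parental cells. The epithelial keratins KRT5 and KRT14 were lower, with 0.288 and 0.599 CPM in YFP-negative cells and 2.66 and 3.88 CPM in parental cells. Of 13 neuronal markers 6 were below 1 CPM in both libraries, and the list summed to 202 CPM in YFP-negative and 289 CPM in parental cells. Of the 8 analysed, 1 was higher and 0 lower, 4 lay above 0 and the median log2 ratio was 0.03. TUBB3 had 91.2 CPM in YFP-negative and 178 CPM in parental cells and was not called. SYP was the higher gene, with 11.4 CPM in YFP-negative and 4.68 CPM in parental cells. The simple-epithelium keratins KRT8 and KRT18 had 190 and 339 CPM in YFP-negative cells and 286 and 277 CPM in parental cells. The 16 epithelial markers summed to 544 CPM in YFP-negative and 588 CPM in parental cells, and the 11 endothelial markers to 17.6 CPM in YFP-negative and 15.5 CPM in parental cells. Among the endothelial markers ROBO4 was higher, with 5.06 CPM in YFP-negative and 1.66 CPM in parental cells. VWF was lower, with 0.695 CPM in YFP-negative and 2.70 CPM in parental cells. Both calls ended with 2 CPM added. In bulk RNA, fewer cells of a type and less RNA per cell cannot be told apart.

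Several genes were almost silent in parental cells and expressed in YFP-negative cells. IL13RA2, a decoy receptor for interleukin 13, had 452 reads in YFP-negative cells and 6 in parental cells, a 71.2-fold higher level (32.5 to 195). GPR65, a receptor that senses acid, had 165 reads in YFP-negative cells and 1 in parental cells, a ratio of 156 (27.6 to 6199). OLAH, a thioesterase of fatty acid synthesis, had 738 reads in YFP-negative cells and 42 in parental cells and was 16.6-fold higher (12.2 to 23.2). The first 2 of these ratios rest on very few parental reads. ZNF431, a zinc finger gene, had 105 reads in YFP-negative cells and 0 in parental cells. Set against a floor of 3 reads in the parental library, its level was 33.1-fold higher, and its counting interval starts at 26.4. NRK, a kinase gene, had 82 reads in YFP-negative cells and 0 in parental cells, 25.8-fold above that floor, with an interval from 20.5. ADAM29, of the testis-expressed ADAM family, had 55 reads in YFP-negative cells and 0 in parental cells, 17.3-fold above the floor, with an interval from 13.6. With 2 CPM added in place of 0.5 CPM, GPR65, ZNF431, NRK and ADAM29 fell short of the 2-fold rule, with log2 ratios of 0.98, 0.70, 0.58 and 0.41. These genes did not climb with YFP: IL13RA2 had 5.42 CPM in YFP-negative cells, and 7.34, 6.95 and 6.10 CPM in YFP-low, YFP-medium and YFP-high cells. GPR65 had 1.98 CPM in YFP-negative cells, and 2.96, 1.74 and 0.563 CPM along the same 3 fractions.

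Other genes were far lower in YFP-negative cells than in parental cells. WNT11, a secreted WNT ligand, had 23 reads in YFP-negative cells and 1139 in parental cells, that is 0.276 CPM in YFP-negative and 14.4 CPM in parental cells. It was 52.4-fold lower in YFP-negative cells (34.7 to 83.0). CXCL14, a chemokine, had 4.95 CPM in YFP-negative and 74.0 CPM in parental cells and was 14.9-fold lower (13.5 to 16.6). MN1, a transcriptional cofactor first known from meningioma, was 10.4-fold lower, with 18.9 CPM in YFP-negative and 198 CPM in parental cells. DRD1, the dopamine D1 receptor, was 8.62-fold lower, with 2.19 CPM in YFP-negative and 18.9 CPM in parental cells. BMF, a BH3-only protein that promotes apoptosis, was 8.47-fold lower, with 1.71 CPM in YFP-negative and 14.5 CPM in parental cells. CA9, a carbonic anhydrase of the hypoxia response, had 4 reads (0.048 CPM) in YFP-negative cells and 85 (1.08 CPM) in parental cells. Levels in the other construct-bearing fractions differed between these genes. CXCL14 had 3.11, 2.71 and 6.43 CPM in YFP-low, YFP-medium and YFP-high cells, and MN1 had 12.03, 6.68 and 20.3 CPM. DRD1 had 1.06, 1.24 and 20.9 CPM, CA9 had 0.129, 0.369 and 1.53 CPM, and WNT11 had 0.284, 0.384 and 4.49 CPM in the same order.

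Genes of NF-kB signalling and inflammation were called higher and none lower. NF-kB is a family of transcription factors that inflammatory signals release into the nucleus, and among its targets are its own inhibitors, survival genes and chemokines. Of 38 listed genes 26 were analysed, 10 were higher in YFP-negative cells, 0 lower and 16 neither. The median log2 ratio was 0.63, and 22 of the 26 genes lay above 0. The other 12 listed genes were below 1 CPM in every library. No set test was made, so this is a description of the list beside the values of all genes given above.

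Among components of the pathway, NFKBIE, an inhibitor of NF-kB, was 2.77-fold higher, with 45.2 CPM in YFP-negative and 16.3 CPM in parental cells. RELB, a subunit of the non-canonical pathway, was 2.98-fold higher, with 35.6 CPM in YFP-negative and 11.96 CPM in parental cells. NFKBIZ, a nuclear regulator of secondary targets, was 2.31-fold higher, with 46.2 CPM in YFP-negative and 20.0 CPM in parental cells. The core subunit genes moved less. NFKB1 had 88.3 CPM in YFP-negative and 53.4 CPM in parental cells, NFKB2 had 138 CPM in YFP-negative and 80.2 CPM in parental cells, and neither was called. Among survival targets, TRAF1, an adaptor of TNF receptors, was 7.40-fold higher (6.40 to 8.59), with 19.4 CPM in YFP-negative and 2.62 CPM in parental cells. BIRC3, an inhibitor of apoptosis, was 3.79-fold higher (3.46 to 4.16), with 28.2 CPM in YFP-negative and 7.43 CPM in parental cells.

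Among secreted members, IL8, the neutrophil chemokine now named CXCL8, was 6.47-fold higher (5.82 to 7.20), with 32.6 CPM in YFP-negative and 5.05 CPM in parental cells. CCL20, a chemokine for CCR6-bearing cells, was 5.52-fold higher (4.47 to 6.88), with 7.14 CPM in YFP-negative and 1.29 CPM in parental cells. IL1A, the cytokine interleukin 1 alpha, had 188 reads in YFP-negative cells and 30 in parental cells, and its call ended with 2 CPM added (log2 ratio 0.84). IL32 had 51.2 CPM in YFP-negative and 16.2 CPM in parental cells. CCL2, the monocyte chemokine, had 24.0 CPM in YFP-negative and 11.98 CPM in parental cells and fell just short of the rule. CD83, a membrane protein of activated cells, had 31.0 CPM in YFP-negative and 9.64 CPM in parental cells.

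The higher members parted across the YFP-positive fractions. IL8 had 31.0, 21.9 and 9.97 CPM in YFP-low, YFP-medium and YFP-high cells, and TRAF1 had 14.4, 10.6 and 4.22 CPM in the same order. BIRC3 had 20.9, 13.04 and 7.82 CPM and CCL20 had 5.65, 3.50 and 1.30 CPM in that order. In each of these 4 genes YFP-negative cells had the highest level of the 5 libraries. CD83 instead had 88.0, 196 and 229 CPM in YFP-low, YFP-medium and YFP-high cells, and NFKBIZ had 62.1, 86.8 and 89.3 CPM.

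The promoters of 4 of these genes are shown because their letters hold a motif that the members of the list can share. They are RefSeq sequences of build GRCh38.p14, from 250 bases before to 50 after the gene start, 5′ to 3′ on the strand of the gene. Capitals mark TGANTCA, the AP-1 motif, in IL8 (chr4:73740319-73740618, plus strand) and IL1A (chr2:112784444-112784743, minus strand). Capitals mark the NF-kB motif, GGG, any 4 bases, TCC, here read on the opposite strand, in CCL20 (chr2:227813592-227813891, plus strand) and BIRC3 (chr11:102317234-102317533, plus strand).
IL8 promoter: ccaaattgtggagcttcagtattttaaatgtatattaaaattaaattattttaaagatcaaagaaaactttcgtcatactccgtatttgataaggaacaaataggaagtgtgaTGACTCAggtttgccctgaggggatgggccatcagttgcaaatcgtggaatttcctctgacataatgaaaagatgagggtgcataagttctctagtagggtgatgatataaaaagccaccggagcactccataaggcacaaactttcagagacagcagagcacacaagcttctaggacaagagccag
IL1A promoter: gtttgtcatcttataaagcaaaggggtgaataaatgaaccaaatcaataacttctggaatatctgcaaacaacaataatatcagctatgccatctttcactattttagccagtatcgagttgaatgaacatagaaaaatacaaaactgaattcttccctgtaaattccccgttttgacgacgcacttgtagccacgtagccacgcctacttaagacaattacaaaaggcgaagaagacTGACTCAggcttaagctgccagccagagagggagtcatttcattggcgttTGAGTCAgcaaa
CCL20 promoter: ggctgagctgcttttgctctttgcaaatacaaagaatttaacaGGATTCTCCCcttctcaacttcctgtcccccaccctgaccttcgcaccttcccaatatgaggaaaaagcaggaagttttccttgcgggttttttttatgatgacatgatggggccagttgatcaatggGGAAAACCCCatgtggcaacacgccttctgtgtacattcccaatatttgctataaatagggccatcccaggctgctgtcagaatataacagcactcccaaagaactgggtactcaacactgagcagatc
BIRC3 promoter: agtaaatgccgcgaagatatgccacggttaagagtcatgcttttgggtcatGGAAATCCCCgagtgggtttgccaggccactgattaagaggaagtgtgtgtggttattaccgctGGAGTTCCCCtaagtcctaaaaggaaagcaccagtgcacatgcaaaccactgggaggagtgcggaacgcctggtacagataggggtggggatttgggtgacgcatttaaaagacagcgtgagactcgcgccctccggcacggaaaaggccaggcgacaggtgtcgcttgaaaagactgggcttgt

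The NF-kB motif lay in 4 of the 8 promoters found for the higher members of the list, those of NFKBIZ, BIRC3, CCL20 and IL32. The share was the same among all analysed members of the list, 10 of 20 promoters. The motif lay in 27.2% of 11060 promoters of analysed genes, in 23.6% of 220 promoters of genes called higher and in 30.0% of 293 promoters of genes called lower. The AP-1 motif, which reads the same on both strands, lay in 15% of promoters of higher genes, 7.51% of lower genes and 4.60% of all. The E2F motif TTTNNCGC lay in 7.73% of promoters of higher genes, 5.80% of lower genes and 10.3% of all. Both strands were searched, 1 promoter can hold several motifs, and promoters on chromosome 8 were left out. Median promoter GC content was 60.5% for higher genes, 66.0% for lower genes and 65.3% for all, and its part in the motif shares was not tested. A match describes letters in this window and no binding. A promoter without a match, such as that of IL8, can still hold an NF-kB site with other letters.

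Beyond the NF-kB list 2 further survival genes were higher. Among 14 anti-apoptotic genes there were 4 higher and 0 lower ones, and the median log2 ratio was 0.43. They were BIRC3 and TRAF1, which the NF-kB list also holds, BCL2 and BCL2A1. BCL2, the founding survival factor of its family, was 4.10-fold higher (3.81 to 4.43), with 44.0 CPM in YFP-negative and 10.7 CPM in parental cells. BCL2A1, a related NF-kB target, had 177 reads in YFP-negative cells and 22 in parental cells, and its call ended likewise (0.85). Of 30 pro-apoptotic genes 3 were higher and 2 lower. TP73, a p53 relative and an E2F1 target, was 2.30-fold higher, with 47.0 CPM in YFP-negative and 20.5 CPM in parental cells. CASP10, a caspase of death receptors, was 5.85-fold higher, with 3.93 CPM in YFP-negative and 0.672 CPM in parental cells, and MAP3K5 was 2.34-fold higher. BMF, described above, and DAPK1 were lower.

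**Figure D2:**
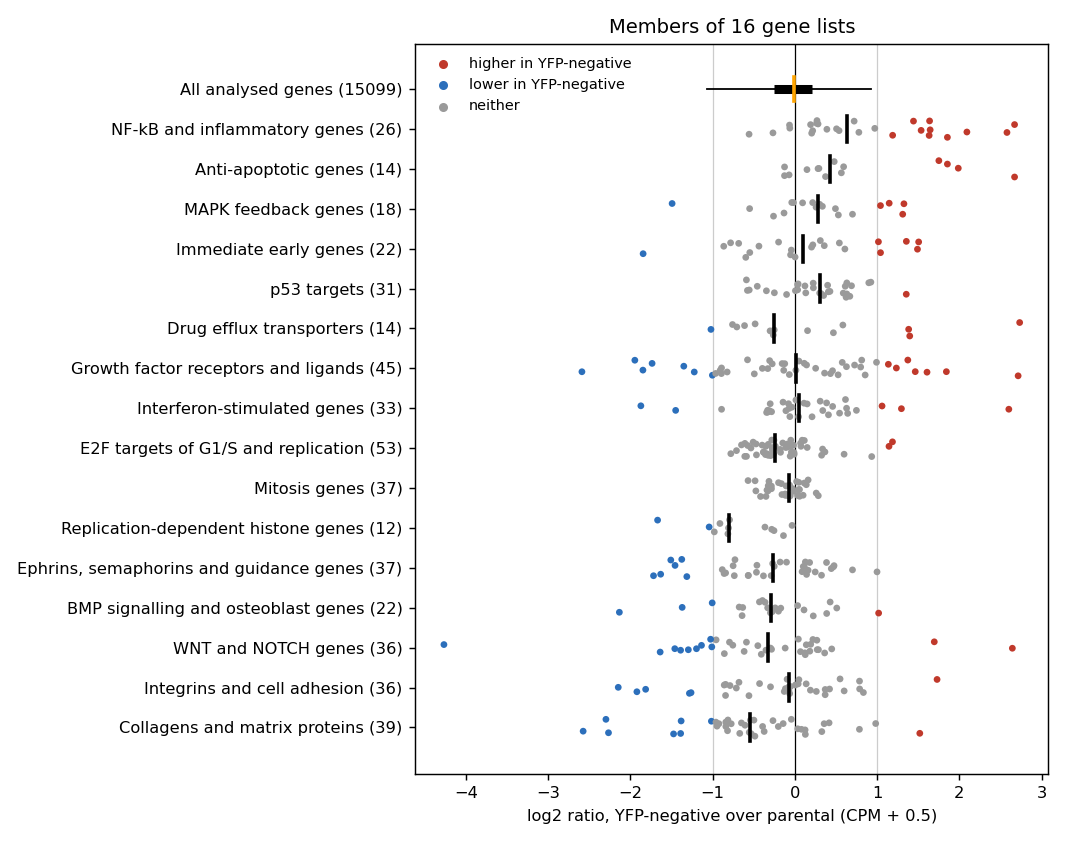
Log2 ratios of YFP-negative over parental cells (horizontal axis, computed on CPM + 0.5) for the analysed members of 16 gene lists, 1 point a gene, red higher, blue lower, grey neither, with a black bar at each list's median. The top row gives all 15099 genes as the median, the quartiles and the central 95%; the NF-kB list has 10 red and 0 blue points, and the matrix list 1 red and 7 blue points.

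Growth factor genes moved in both directions. Of 45 receptors and ligands 7 were higher and 7 lower, around a median log2 ratio of 0.01. FGF5, a fibroblast growth factor, was 7.05-fold higher (6.39 to 7.80), with 40.2 CPM in YFP-negative and 5.71 CPM in parental cells. The EGF receptor ligands AREG and EREG were 5.23-fold and 3.66-fold higher. MET, the receptor for hepatocyte growth factor, was 2.20-fold higher, with 229 CPM in YFP-negative and 104 CPM in parental cells. ERBB4, FLT1 and NTRK2 were also higher, at low levels of 1.49, 1.98 and 1.69 CPM in YFP-negative cells, against 0.152, 0.456 and 0.431 CPM in parental cells. The mesenchymal receptors PDGFRA and PDGFRB were 3.46-fold and 2.35-fold lower, with 8.94 and 35.0 CPM in YFP-negative cells and 31.0 and 82.4 CPM in parental cells. IGFBP5, a binding protein for insulin-like growth factors, was 3.61-fold lower, with 89.0 CPM in YFP-negative and 322 CPM in parental cells. NTRK3, IGFBP4, NRP1 and ERBB2 completed the lower genes, and the call of ERBB2 ended under another scaling. With 2 CPM added the calls of ERBB4, FLT1, NTRK2 and EREG ended too.

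Among genes that report MAPK signalling more were called higher than lower. Of 18 MAPK feedback genes 4 were higher and 1 lower; the median was 0.28. ETV4 and ETV5, ETS factors induced by ERK activity, had 139 and 119 CPM in YFP-negative cells and 55.2 and 47.8 CPM in parental cells. ETV1 and SPRED3 were also higher, and PHLDA1 was 2.87-fold lower. The calls of ETV1 and SPRED3 ended with 2 CPM added, at log2 ratios of 0.84 and 0.99. ETV1 also fell short after a correction for GC content. Of 22 immediate early genes 5 were higher and 1 lower. Their median log2 ratio was 0.10, 12 of the 22 lay above 0, and they summed to 1362 CPM in YFP-negative and 1497 CPM in parental cells. MAFF was 2.87-fold higher, FOSL1 2.07-fold, FOSB 3.00-fold, NR4A2 2.85-fold and KLF2 2.08-fold. EGR2 was 4.49-fold lower, with 1.44 CPM in YFP-negative and 6.47 CPM in parental cells. FOSL1, a subunit of AP-1, had 80.9 CPM in YFP-negative and 39.1 CPM in parental cells. The AP-1 subunit genes FOSL2 and JUND lay below parental cells and were not called. They had 317 and 54.4 CPM in YFP-negative cells and 480 and 93.8 CPM in parental cells. ITGA2, a collagen-binding integrin, and PLAU, the urokinase protease, were 3.37-fold and 2.06-fold higher, each the 1 higher member of its list. The calls of KLF2 and PLAU ended with 2 CPM added, at log2 ratios of 0.91 and 0.99.

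Matrix genes were called lower more often than higher. Of 39 analysed collagens and matrix proteins 7 were lower, 1 was higher and 31 were neither in YFP-negative cells. The median log2 ratio was -0.54, and the summed level was 9759 CPM in YFP-negative and 14828 CPM in parental cells. COL1A1, the main chain of type I collagen, had 1254 CPM in YFP-negative and 3271 CPM in parental cells and was 2.61-fold lower (2.59 to 2.63). COL3A1, of type III collagen, was 4.92-fold lower, with 17.2 CPM in YFP-negative and 84.8 CPM in parental cells. LAMA5, a laminin chain of basement membranes, was 4.94-fold lower, with 75.4 CPM in YFP-negative and 373 CPM in parental cells. LAMA4 had 15 reads in YFP-negative cells and 280 in parental cells. COL6A1 and COL18A1 were 2.79-fold and 2.70-fold lower, and COL11A1 was 2.03-fold lower, close to the rule. COL13A1, a membrane collagen, was 2.94-fold higher, with 39.3 CPM in YFP-negative and 13.4 CPM in parental cells. LUM, a small proteoglycan, had 44.5 CPM in YFP-negative and 22.3 CPM in parental cells and was not called.

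Calls among adhesion and guidance genes were mostly lower, while the adhesion list as a whole did not shift. Of 36 integrins and adhesion genes 5 were lower, 1 was higher and 30 were neither. Their median log2 ratio was -0.07, and they summed to 5708 CPM in YFP-negative and 5707 CPM in parental cells. L1CAM, a neural adhesion molecule that tumours often make, was 3.81-fold lower, with 61.7 CPM in YFP-negative and 235 CPM in parental cells. PCDH18 was 5.09-fold lower, and the integrin genes ITGA11, ITGB2 and ITGB8 were 4.71-fold, 2.71-fold and 2.43-fold lower. Of 37 ephrins, semaphorins and other guidance genes 6 were lower and 0 higher, with a median of -0.27. SEMA3B, SEMA3D, SEMA3E and SEMA3F, which encode secreted repellents, were 3.43-fold, 3.88-fold, 2.64-fold and 2.51-fold lower, and SEMA6A and EPHB3 were 2.92-fold and 3.00-fold lower.

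Developmental ligands and their receptors were also lower more often than higher. Of 36 WNT and NOTCH genes 9 were lower and 2 higher, with a median log2 ratio of -0.32. Beside WNT11, the ligands WNT6, WNT10A, WNT7B and WNT9A were 3.04-fold, 2.77-fold, 2.59-fold and 3.00-fold lower. The receptor genes FZD2 and FZD4 were 2.65-fold and 2.07-fold lower. AXIN2 and LGR5, standard target genes of WNT signalling, were 2.08-fold and 4.27-fold lower, with 10.6 and 0.911 CPM in YFP-negative cells and 22.1 and 3.89 CPM in parental cells. The calls of AXIN2 and FZD4 ended under another scaling, and those of WNT7B, WNT9A, WNT10A and DKK2 ended with 2 CPM added. DKK2, a secreted WNT regulator, had 179 reads in YFP-negative cells and 25 in parental cells. Of 22 BMP and osteoblast genes 3 were lower and 1 higher. BMP4, a bone morphogenetic ligand, was 4.45-fold lower (4.26 to 4.64), with 30.7 CPM in YFP-negative and 136 CPM in parental cells. BMP7 was 2.71-fold lower, and BMP2 was 2.12-fold higher.

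**Figure D3:**
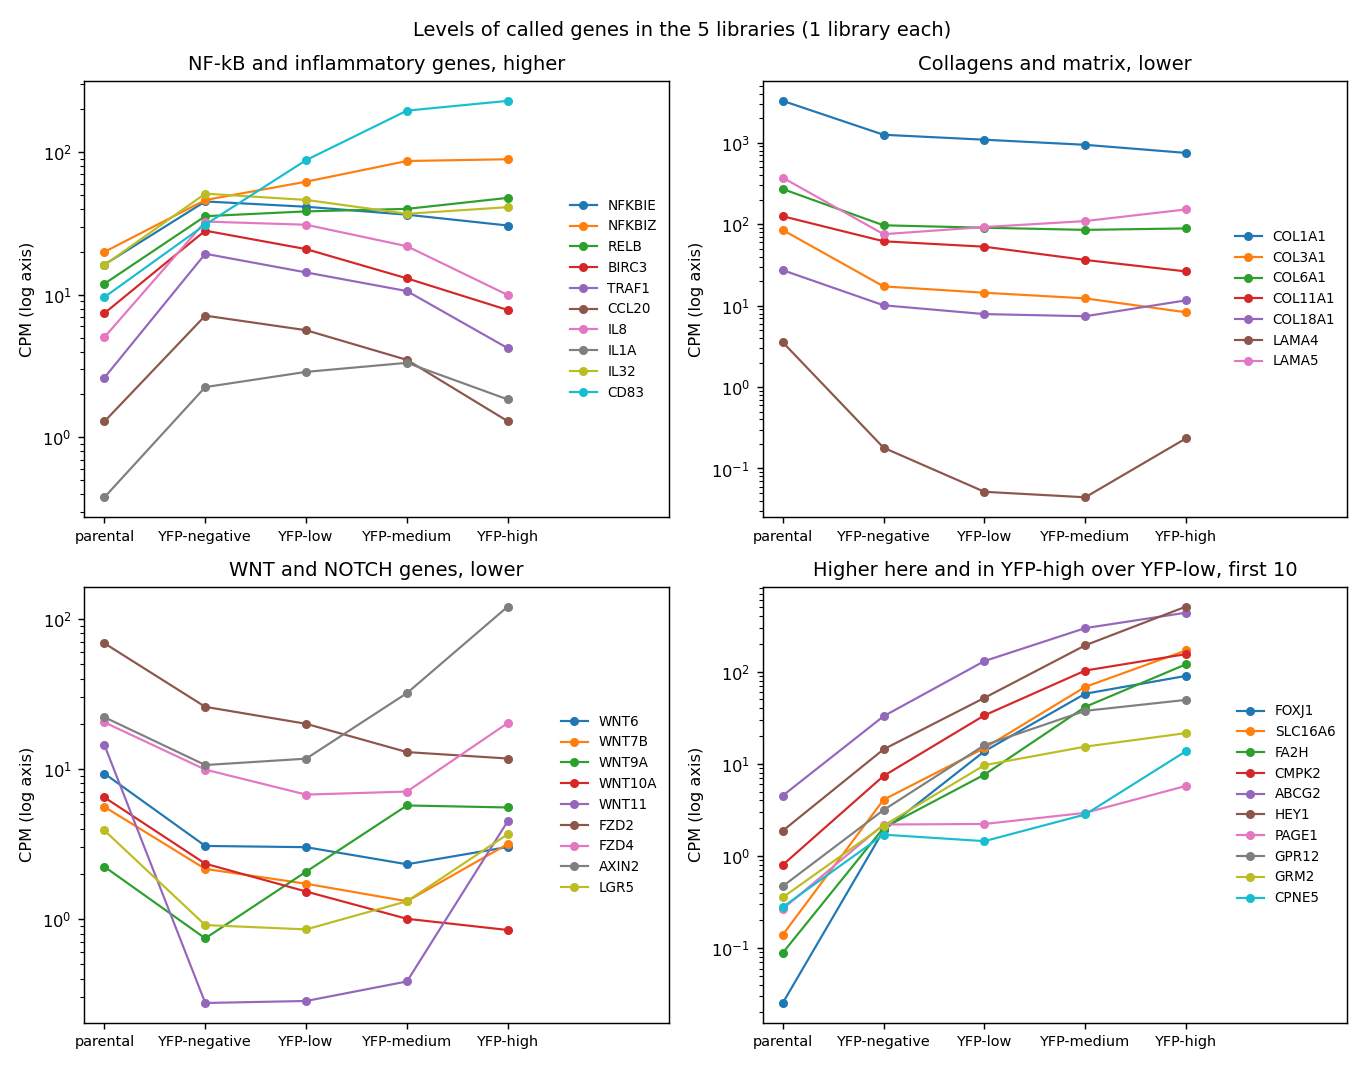
Levels (vertical axes, CPM, log axes) in the 5 libraries (parental and YFP-negative, then the fractions of low, medium and high YFP), 1 library each, for genes called between YFP-negative and parental cells. IL8, TRAF1, BIRC3 and CCL20 peak in YFP-negative cells, the matrix genes are highest in parental cells, and in the last panel 10 genes chosen as higher in both comparisons are lowest in parental and highest in YFP-high cells.

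Genes of the cell cycle, the textbook targets of E2F1, differed little. Of 53 E2F targets that act in G1/S and replication, YFP-negative cells had 2 higher and 0 lower, the median log2 ratio was -0.24, and 12 of the 53 lay above 0. The 2 higher genes were the E-type cyclins. CCNE1 had 157 CPM in YFP-negative and 70.7 CPM in parental cells and was 2.22-fold higher (2.15 to 2.29). CCNE2 had 53.9 CPM in YFP-negative and 23.4 CPM in parental cells and was 2.30-fold higher (2.18 to 2.43). RRM2, a subunit of ribonucleotide reductase, had 966 CPM in YFP-negative and 505 CPM in parental cells, just under the rule. The replication helicase gene MCM6 had 95.2 CPM in YFP-negative and 164 CPM in parental cells, and TK1, thymidine kinase, had 171 CPM in YFP-negative and 280 CPM in parental cells. The cyclins and RRM2 thus lay above parental cells while most replication genes lay below them, without passing the rule.

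Mitosis genes showed no call among 37, with a median of -0.07. Of 12 analysed replication-dependent histone genes 0 lay above 0, the median was -0.80, and 2 were lower. HIST1H2AC had 14.2 CPM in YFP-negative and 46.1 CPM in parental cells, and HIST2H2AC had 72 reads in YFP-negative cells and 182 in parental cells. Histone genes are near-identical copies and most of their transcripts lack a poly(A) tail, so these reads are uncertain. Among cyclin-dependent kinase inhibitors, with 0 of 6 called, CDKN1A, the p53 target p21, had 299 CPM in YFP-negative and 185 CPM in parental cells. Of 31 p53 targets 1 was higher, GADD45A, with 97.7 CPM in YFP-negative and 37.9 CPM in parental cells, and the median was 0.30.

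The YFP-high and YFP-low libraries, which the comparison does not use, chose genes that follow YFP level. Between them 2312 genes were higher in YFP-high (15.3%) and 1065 lower (7.05%). The 2312 higher genes had a median log2 ratio of 0.01 in YFP-negative over parental cells, with 57 higher (2.47%) and 112 lower (4.84%). The 1065 lower genes had a median of -0.04, with 68 higher (6.38%) and 52 lower (4.88%). The remaining 11722 genes had a median of -0.01, with 202 higher (1.72%) and 278 lower (2.37%). These classes include genes under 1 CPM in both libraries, which can rarely pass the rule and whose ratios the added 0.5 CPM holds near 0. With at least 1 CPM in YFP-negative or parental cells, 1731 of the 2312 genes were left, with a median of 0.01. Of them 55 were higher (3.18%) and 112 lower (6.47%). Of 1056 lower genes left, 6.44% were higher and 4.92% lower, and of 11435 remaining genes 1.71% and 2.41%. Across all 15099 genes Spearman's rho between the 2 ratios was 0.05, and it was also 0.05 over the 14222 genes with that level. The points are genes of the same libraries and not independent replicates.

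**Figure D4:**
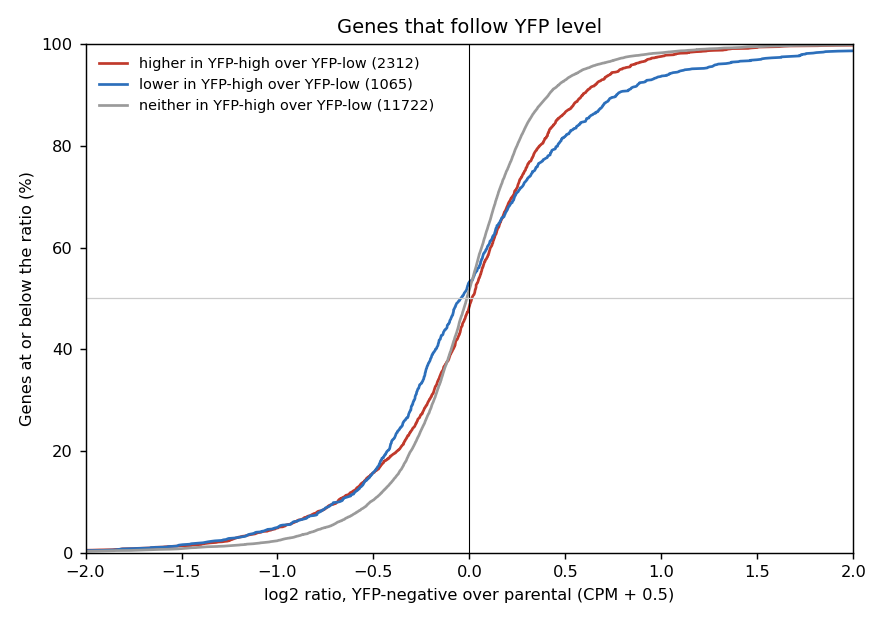
Cumulative share of genes (vertical axis, percent) at or below each log2 ratio of YFP-negative over parental cells (horizontal axis, computed on CPM + 0.5), for genes higher (red, 2312), lower (blue, 1065) or neither (grey, 11722) in YFP-high over YFP-low cells. The 3 curves cross the middle near 0, with medians of 0.01, -0.04 and -0.01, and the red and blue curves are wider than the grey one. Genes under 1 CPM in both libraries are included.

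Of the 327 genes higher in YFP-negative cells, 57 (17.4%) were also higher in YFP-high over YFP-low cells, near the 15.3% of all genes. Another 68 (20.8%) were lower there, against 7.05% of all genes. Of the 442 lower genes, 112 (25.3%) were higher in YFP-high cells, against the same 15.3%, and 52 (11.8%) lower, against 7.05%. The 57 genes are described by those with the greatest ratios. FOXJ1, a forkhead factor of ciliated cells, had 158 reads in YFP-negative cells and 2 in parental cells, a ratio of 74.7 (20.3 to 622). Its levels were 1.89 CPM in YFP-negative cells and 0.0254 CPM in parental cells, and 13.7, 57.7 and 90.0 CPM in YFP-low, YFP-medium and YFP-high cells. SLC16A6, of the monocarboxylate transporter family, was 29.2-fold higher (16.1 to 59.1), and had 4.08 CPM in YFP-negative cells and 14.8, 68.4 and 170 CPM in YFP-low, YFP-medium and YFP-high cells. FA2H, a hydroxylase of fatty acids in sphingolipids, had 168 reads in YFP-negative cells and 7 in parental cells. Its levels were 2.01 CPM in YFP-negative cells and 7.63, 41.5 and 120 CPM in YFP-low, YFP-medium and YFP-high cells. With 2 CPM added, FOXJ1 and FA2H each had a log2 ratio of 0.94, short of the rule.

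ABCG2, a drug efflux transporter, was 7.28-fold higher (6.51 to 8.15), with 32.8 CPM in YFP-negative and 4.51 CPM in parental cells. It went on to 130, 297 and 437 CPM in YFP-low, YFP-medium and YFP-high cells. HEY1, a NOTCH target, was 7.65-fold higher (6.45 to 9.14), with 14.4 CPM in YFP-negative and 1.88 CPM in parental cells, and reached 509 CPM in YFP-high cells. CMPK2, a mitochondrial nucleotide kinase that interferon also induces, was 9.24-fold higher (7.13 to 12.2), with 7.38 CPM in YFP-negative and 0.799 CPM in parental cells. STOX1, a winged-helix factor, had 2.28 CPM in YFP-negative cells and 8.81, 12.3 and 10.4 CPM in YFP-low, YFP-medium and YFP-high cells, against 0.114 CPM in parental cells. CCNE1 and BCL2 had higher levels again in YFP-low cells, with 433 and 151 CPM in YFP-low cells. GPR12 and GRM2, receptor genes chosen after their values were seen, were 6.72-fold and 6.01-fold higher in YFP-negative cells.

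Interferon-stimulated genes other than CMPK2 did not move together. Of 33 analysed genes 3 were higher and 2 lower; the median was 0.04. GBP1 and SAMD9L were 2.89-fold and 2.17-fold higher, and IFI44 and IFIT1 were 4.69-fold and 3.11-fold lower. Among 14 drug efflux transporters ABCB1 and ABCC9 were 2.68-fold and 3.17-fold higher beside ABCG2, and ABCA7 was 2.13-fold lower. The list's median log2 ratio was -0.26, and 6 of the 14 lay above 0. The calls of ABCC9 and ABCA7 ended with 2 CPM added, at log2 ratios of 0.93 and -0.86. That of ABCA7 also ended under total-count scaling and after a correction for GC content.

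Of the 52 gene lists, 14 had no called member. Among them were 37 cytosolic ribosomal proteins, with a median of -0.12, 33 genes of ribosome biogenesis, with 0.28, 25 genes of cholesterol synthesis, with -0.00, 32 genes of oxidative phosphorylation, with 0.09, and 25 housekeeping genes, with 0.07. Of 22 YAP and TEAD targets none was called, and CTGF, the best known of them, had 670 CPM in YFP-negative and 363 CPM in parental cells.

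Neighbouring genes differed together in some places. Gene order was taken from the RefSeq annotation of GRCh38.p14, which placed 13851 of the analysed genes (91.7%). Medians over windows of 25 neighbours ran from -0.71 to 0.48, and 95% of the 13299 windows lay between -0.30 and 0.24. The lowest window in YFP-negative over parental cells lay on chromosome 20 from OSBPL2 to PTK6, where 21 of 25 genes were below 0 and 7 were called lower. These were LAMA5, CABLES2, GATA5, TCFL5, FLJ16779, COL20A1 and CHRNA4. The window had a median of -0.71 in YFP-negative cells, and of -0.63, -0.35 and 0.59 in YFP-low, YFP-medium and YFP-high cells over the same parental library. CHRNA4, a subunit of a nicotinic receptor, was 4.69-fold lower, with 3.54 CPM in YFP-negative and 16.6 CPM in parental cells. The next lowest windows lay on chromosome 21 from PFKL to C21orf58, with a median of -0.68, and on chromosome 17 from MSI2 to TUBD1, with -0.63. The first of these holds ITGB2, COL18A1 and COL6A1, which are members of lists given above. In the second, 23 of 25 genes lay below 0, and RNF43, a WNT receptor ligase, was 4.31-fold lower.

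The highest window lay on chromosome 8 from ZNF704 to OTUD6B, with a median of 0.48 and 21 of 25 genes above 0. PAG1, an adaptor of SRC-family kinases, and CA2, a carbonic anhydrase, were its called genes, at 3.35-fold and 2.11-fold higher. Windows on chromosome 5 from DOCK2 to CPLX2 and on chromosome 6 from MYB to PEX3 had medians of 0.41 and 0.39. Overlapping windows share genes, and the number of gene copies in each population was not measured.

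**Figure D5:**
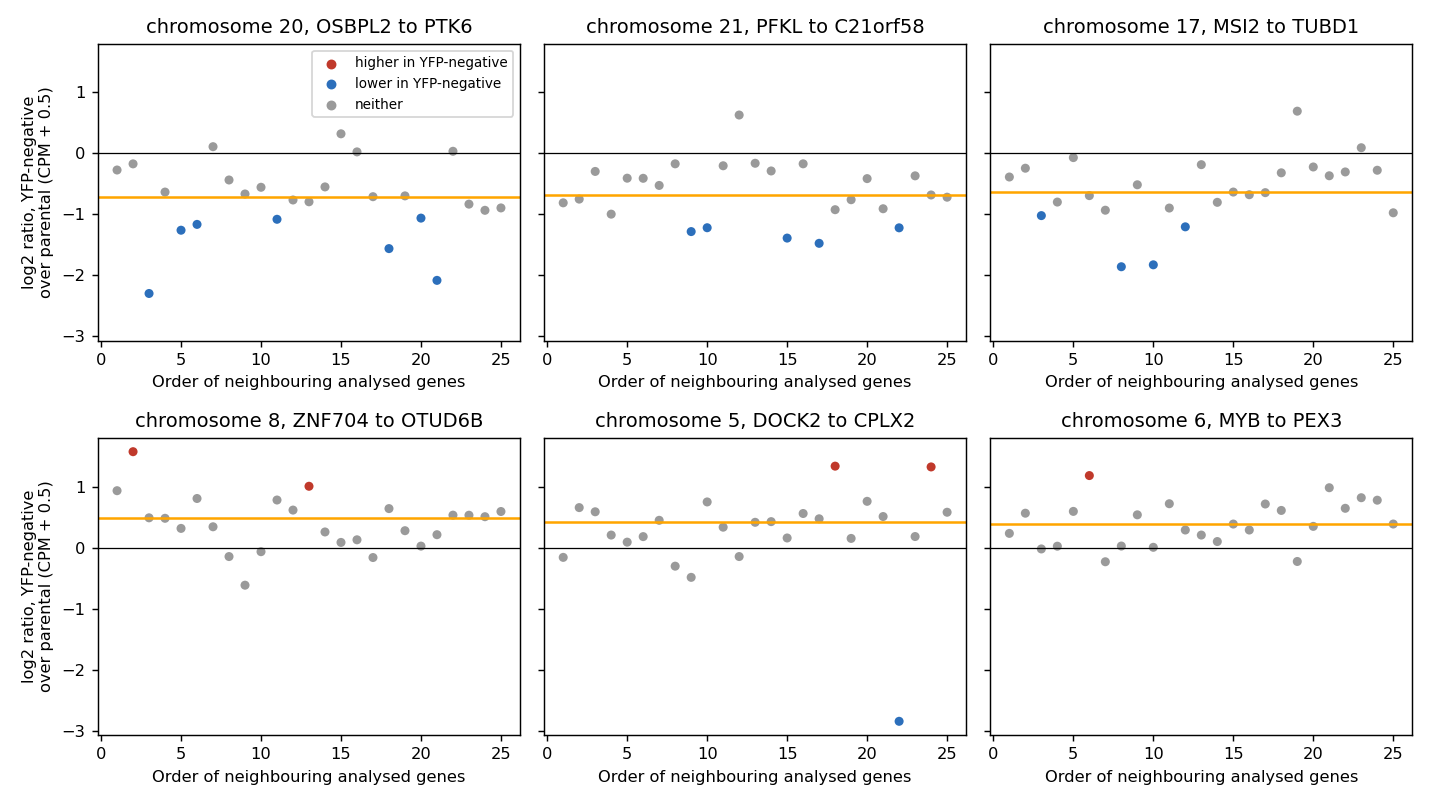
Log2 ratios of YFP-negative over parental cells (vertical axes, computed on CPM + 0.5) for the 25 neighbouring analysed genes of 6 windows in chromosomal order (horizontal axes), red higher, blue lower, grey neither, with an orange line at the window's median. In the top row, with medians of -0.71, -0.68 and -0.63, most genes lie below 0, and in the bottom row, with medians of 0.48, 0.41 and 0.39, most lie above.

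In 5 places 3 neighbours in a row were called the same way. On chromosome 11 these were HBE1, the embryonic globin gene, OR51B4 and OR51B5, both olfactory receptor genes, all higher. HBE1 had 426 reads in YFP-negative cells and 42 in parental cells, OR51B5 had 313 in YFP-negative cells and 9 in parental cells, and OR51B4 had 153 in YFP-negative cells and 4 in parental cells. Genes around them were below the filter and were chosen after their values were seen: OR51B2 had 20 reads in YFP-negative cells and 0 in parental cells, and OR52D1 had 22 in YFP-negative cells and 1 in parental cells. The adult globin gene HBB had no reads in either library, and the fetal gene HBG2 had 11 in YFP-negative cells and 28 in parental cells. HBE1 and the OR51B genes can overlap in annotations, and the strand setting of the counts is not given, so their reads cannot be told apart. On chromosome 22 CRYBB1, MIAT and MN1 were lower together, with MIAT, a long noncoding RNA, at 20.4 CPM in YFP-negative and 72.7 CPM in parental cells. On chromosome 12 the keratin genes KRT75, KRT6B and KRT5 were lower together, and KRT75 had 7.67 CPM in YFP-negative and 48.9 CPM in parental cells. KISS1, GOLT1A and PLEKHA6 on chromosome 1 were higher together, and ZNF503-AS2, C10orf11 and KCNMA1 on chromosome 10 lower.

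Transcript GC content moved with the ratios. In the lowest of 10 equal bins of GC content, genes had a median log2 ratio of 0.10, with 2.69% higher and 1.09% lower. Genes of the highest bin had a median of -0.13, with 1.09% higher and 6.10% lower. Median GC content was 47.5% among higher genes, 55.9% among lower genes and 50.1% among all, and its part in the calls above was not tested beyond the centring given in the closing values. Among the lists, the median GC content was 50.8% for the NF-kB list, 50.9% for the matrix list and 57.5% for the WNT and NOTCH list.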

How the data were processed

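The members and gene lists were chosen with earlier results of these data known. The authors deposited raw read counts per gene name, with no normalisation, and a table of TPM (transcript level per 1000000, corrected for length) scaled by the authors to 1000000 per library; no source used here names the tool behind TPM. The submitters' processing notes list build hg19, HISAT2 2.0.3, HTSeq 0.6.0, Trimmomatic 0.36, CASAVA 1.8.2 and bcl2fastq. The annotation and the strand setting were not given in sources used here; antisense and overlapping genes may thus share reads. HTSeq's 5 unassigned classes and a row with no gene name (243 reads in YFP-negative, 279 in parental) were left out; gene rows held 76.8% of counted reads in YFP-negative and 77.1% in parental cells.

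Counts were scaled by TMM (edgeR 4.0.16, R 4.3.3) over 5 libraries and filtered at 1 CPM in at least 1 library. Ratios used a pseudocount of 0.5 CPM and so understate the change of low genes. Intervals are 95% Clopper-Pearson (1 library's share of the pair's reads), and the floor is 3 reads per library (0.036 CPM in YFP-negative, 0.038 CPM in parental). The size rule was tested on simulated data. Their spread was set in advance and not taken from replicate cultures, so that test gives no measure of error between cultures. Scripts ran in Python 3.11.15 with scipy 1.17.1, numpy 2.4.6, pandas 2.3.3 and matplotlib 3.10.9.

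The text names ESR1 and E2F1, those 15 called genes of each direction whose counting interval keeps the greatest distance from a ratio of 1, every called list member, up to 3 further members per list with at least 5 CPM, and the end and called genes of a described window; names that are sequence identifiers are not printed, and some list members are not reported here. Other settings tried were total counts, DESeq2 1.42.0 size factors, centring on the median, other filters, a pseudocount of 2 CPM, TPM, 1.5-fold and 3-fold rules, a GC correction in 10 bins (values for 91.1% of genes), and leaving out regions with more than 1 placement. Of these, leaving out 4q13 was added after seeing the data. Promoters came from RefSeq, GRCh38.p14, and were matched by current symbol.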

Additional observations from a re-analysis of the deposited data

How the results depend on the processing

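No paired analysis was possible because each group has 1 library. For the same reason no library could be left out. The 327 higher and 442 lower genes became 161 and 250 with a pseudocount of 2 CPM, 1007 and 1367 under a 1.5-fold rule, and 91 and 116 under a 3-fold rule. With at least 5 CPM in YFP-negative or parental cells 194 genes were higher. The other alternatives kept both counts within 1.5 times, with 334 higher and 409 lower after GC correction. The E2F1 log2 ratio lay between 0.29 and 0.33. Of 299 named genes 0 changed direction; 53 lost their call under at least 1 alternative and 11 gained one. Of these, 51 were lost with a pseudocount of 2 CPM, among them GPR65, ZNF431, FOXJ1, FA2H, IL1A, BCL2A1 and CA9, all low in at least 1 library. Calls that rested on the scaling or on GC included ERBB2, FZD4, AXIN2, COL11A1, MYLK and ABCA7. With deposited TPM, where 0.5 TPM weighs more on long genes, NRK, ERBB4, FLT1 and NTRK2 were among the calls lost. Medians of 7 lists changed sign. The YAP and TEAD list moved to 0.013 with GC correction. With the 5 CPM filter, which leaves fewer genes, medians became -0.109 for aryl hydrocarbon receptor targets, -0.139 for growth factor genes, -0.179 for G protein-coupled receptors, -0.0886 for germline and cancer-testis genes, 0.921 for endothelial and 0.644 for leukocyte markers. Low parental reads limit the precision of the highest ratios, and differences between cultures cannot be told apart from effects of the construct with 1 library a side.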

Other observations

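Genes of neuronal and other excitable cells moved in both directions. Of 42 ion channel genes 3 were higher and 6 lower in YFP-negative cells. KCNQ3, a potassium channel of neurons, was 2.51-fold higher, with 43.9 CPM in YFP-negative and 17.5 CPM in parental cells. KCNJ15 had 101 reads in YFP-negative cells and 7 in parental cells, and had only 0.125 CPM in YFP-high cells. KCNA1, KCNH2, KCNMA1, KCNMB4, KCND3 and CACNA1A were lower, by 3.20-fold, 2.48-fold, 2.42-fold, 2.92-fold, 2.98-fold and 2.38-fold. Of 35 listed G protein-coupled receptors 4 were lower and 0 higher, beside 2.93% lower and 2.17% higher of all genes. The median log2 ratio was 0.04, and 18 of the 35 lay above 0. The list does not hold the receptor genes GPR65, GPR12 and GRM2, which were called higher. CXCR7, a scavenging receptor for the chemokine CXCL12, was 7.35-fold lower, with 2.71 CPM in YFP-negative and 19.9 CPM in parental cells. HTR2A, GPER and GPR56 were 3.00-fold, 2.93-fold and 2.12-fold lower.

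Some genes normally kept for the germ line or the embryo also differed, while the germline list as a whole did not shift. Of 18 germline and cancer-testis genes 4 were higher and 1 lower, beside 2.17% higher and 2.93% lower of all genes. Their median log2 ratio was 0.01, and 9 of the 18 lay above 0. They summed to 1527 CPM in YFP-negative and 1579 CPM in parental cells. PAGE1, CTAG2 and MAGEA10 were higher, with 183, 301 and 292 reads in YFP-negative cells and 21, 52 and 105 in parental cells. The fourth, PAGE5, of the same family as PAGE1, had 319 reads in YFP-negative cells and 5 in parental cells. These families have near-identical copies, so reads of single members are uncertain. The calls of PAGE1 and MAGEA10 ended with 2 CPM added, at log2 ratios of 0.89 and 0.72. H19, an imprinted noncoding RNA, was 3.65-fold lower, with 1.29 CPM in YFP-negative and 4.73 CPM in parental cells. TET1, which oxidises methylated cytosine, was 5.21-fold lower, with 4.99 CPM in YFP-negative and 26.0 CPM in parental cells. It was the 1 called gene of 24 in the list of Polycomb and DNA methylation genes, whose median log2 ratio was -0.08. HOXB2 and HOXD11 were 3.68-fold and 3.86-fold lower among 31 HOX genes, with 0 higher and a median log2 ratio of -0.15. The call of HOXD11 ended with 2 CPM added, at a log2 ratio of -0.83.

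Of 22 hypoxia genes 3 were lower and 1 higher: CA9, CA12 and DDIT4 were lower and STC2 higher. Among all genes 2.93% were lower and 2.17% higher. The median log2 ratio of the hypoxia list was -0.35, and 6 of the 22 lay above 0. CA12 had 11.95 CPM in YFP-negative and 33.8 CPM in parental cells. In lipid and retinoid metabolism PTGIS, CRABP2 and LPL were 3.67-fold, 2.62-fold and 2.21-fold lower among 29 genes, and none was higher. The median log2 ratio of these 29 genes was -0.12. The calls of CA9, STC2 and LPL ended with 2 CPM added, at log2 ratios of -0.59, 0.64 and -0.91.

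Genes of regions with more than 1 placement in the build had levels that varied without order between libraries. EHMT2, in the MHC region, had 8 reads in YFP-negative cells and 296 in parental cells. YTHDC1 had 56 reads in YFP-negative cells and 969 in parental cells, and 143, 55 and 756 in YFP-low, YFP-medium and YFP-high cells. GNL1 had 10 reads in YFP-negative cells and 114 in parental cells, and 120 in YFP-low cells. ASMTL had 29 reads in YFP-negative cells and 159 in parental cells, and 334 in YFP-low cells.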
